A study of Mus musculus with 2 samples.

Results

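Lefty1, Lefty2 and Bmp7 encode secreted proteins of the transforming growth factor beta (TGF-beta) superfamily. Their macroH2A1 peaks in mouse embryonic stem cells are described here. The peaks are the rows of the authors' deposited peak table whose gene symbol is 1 of these 3 names, which gave 4 of the 2560 listed peaks, at 3 of the 2132 assigned genes. Lefty1 and Lefty2 had 1 peak each and Bmp7 had 2. The genes were selected on the peak table itself, by having a listed peak, so their peaks are a description and carry no test.

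The series holds 2 chromatin immunoprecipitation sequencing libraries from E14, an established mouse embryonic stem cell line grown untreated on gelatine with serum and leukemia inhibitory factor. One library was made with an antibody raised against the part of macroH2A1 that lies outside its H2A-like domain, and the other with non-specific IgG. The peak table belongs to the macroH2A1 library, and no value of the IgG library was used here. With 1 library per antibody there is no replicate error on any value below. The table gives no read count or score per peak, the depth is unknown, and so neither the strength nor the precision of a peak can be stated. Whether the same peaks occur in another culture was not tested.

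MacroH2A1 is a variant of histone H2A with a large globular macro domain, known from inactive X chromatin and from silent developmental genes. TGF-beta superfamily ligands bind pairs of type I and type II receptor kinases, which phosphorylate Smad transcription factors. Nodal and activin act through Smad2 and Smad3, and BMPs through Smad1, Smad5 and Smad9. The Lefty proteins are members of the superfamily that block Nodal signalling, and their genes are themselves switched on by Nodal. Both are known as active genes in embryonic stem cells and mark the left side of the embryo. Bmp7 is a BMP ligand needed for kidney and eye development.

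At the Lefty genes both peaks lay close to a gene start but on opposite sides of it. The Lefty2 peak (chromosome 1, 182825450 to 182827200, build mm9) was 1751 bp wide and lay inside the gene. Lefty2 (ENSMUSG00000066652) spans 182823239 to 182829226 on the plus strand. The gap from its start to the peak was 2.21 kb and the gap from the peak to its end was 2.03 kb. The peak was therefore nearly centred, with its midpoint 51.5% of the way along the gene, and its width was 29.2% of the gene length.

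Few peaks inside genes covered as much of their gene. Of the 364 peaks the authors class as inside their gene (14.2% of all peaks), 6 covered at least as large a share of the gene as the Lefty2 peak, counting that peak itself, and the median was 1.91%. The share depends on gene length as well as on peak width. By width alone the Lefty2 peak was at the 70.2nd percentile of inside peaks. Lefty2 is short for a gene with an internal peak. Its length was 5.99 kb, the median over inside peaks was 81.6 kb, and 8 of the 364 lay in a gene no longer than Lefty2. The annotation used gives no exons, so whether the peak covers exon or intron was not analysed here.

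The Lefty1 peak (chromosome 1, 182859700 to 182861950) was 2251 bp wide and lay 3.24 kb before the start of Lefty1 (ENSMUSG00000038793, 182865190 to 182868531, plus strand). Its width was 67.4% of the 3.34 kb gene it was assigned to, although it did not touch the gene. It was 500 bp wider than the Lefty2 peak. Neither peak covered a gene start. The list holds 269 peaks nearer to their gene start than the Lefty1 peak and 203 nearer than the Lefty2 peak.

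Lefty2 and Lefty1 stand head to tail on the same strand. Their starts are 42.0 kb apart, and 36.0 kb separate the Lefty2 end from the Lefty1 start. The Lefty1 peak sat at the Lefty1 side of this interval, 30.5 kb past the end of Lefty2. The 2 peaks were 32.5 kb apart. The peak nearest to each start was thus that gene's own, and the other peak was 38.0 kb from the Lefty1 start and 36.5 kb from the Lefty2 start. In the gene order of the RefSeq table (assembly GRCm38.p6, used for order only), the protein-coding genes Sde2 and Tmem63a flank the pair. No listed peak was assigned to Sde2 or Tmem63a.

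**Figure D1:**
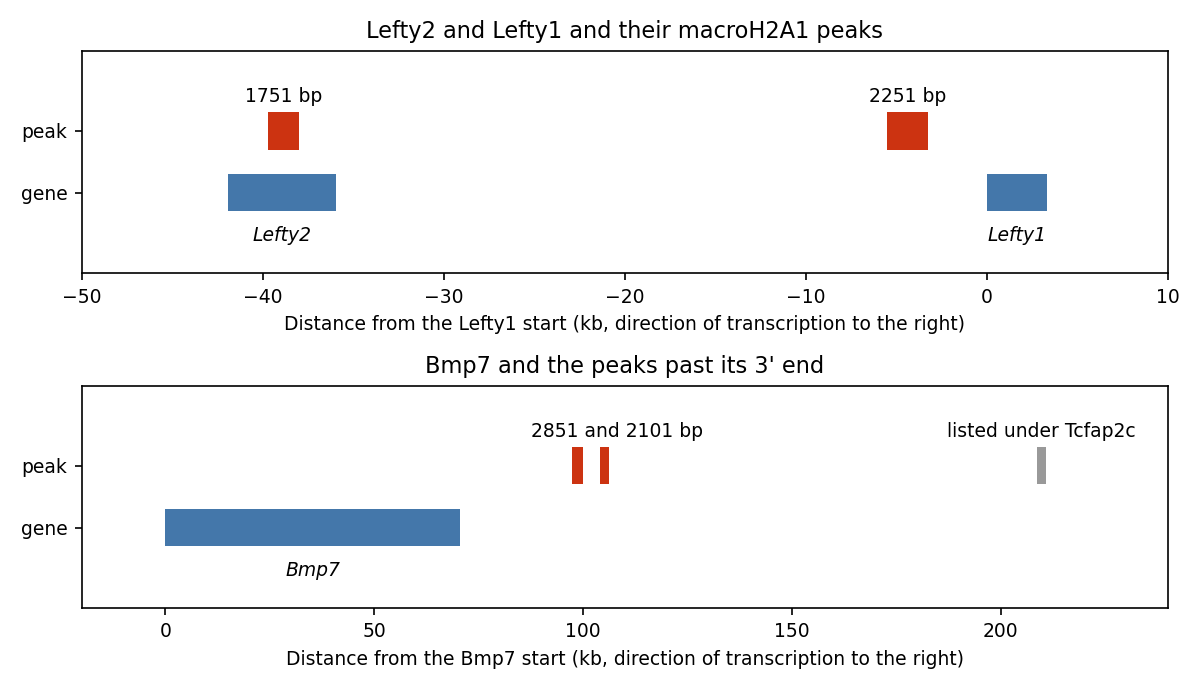
Map of Lefty2 and Lefty1 (top) and of Bmp7 (bottom) with listed macroH2A1 peaks, drawn to scale as distance in kb from the start of Lefty1 or Bmp7, with transcription to the right. Blue bars are genes, red bars the peaks listed under them (width in bp) and the grey bar a peak listed under Tcfap2c; the Lefty peaks lie 2.21 kb inside Lefty2 and 3.24 kb before Lefty1, and both Bmp7 peaks lie past its 3' end.

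The stretches without a listed peak on both sides of the Lefty pair were shorter than the list's median of 490 kb. They measured 416 kb before the Lefty2 peak and 153 kb past the Lefty1 peak, and 54.6% and 75.9% of stretches between successive peaks were at least as long. The next listed peak on the Lefty1 side (183014550 to 183016200, 1651 bp) began 149 kb from the Lefty1 start. It was assigned to ENSMUSG00000080450, a feature of 67 bp without a symbol. The next on the Lefty2 side (182408650 to 182409750, 1101 bp) lay 413 kb from the Lefty2 start, inside 6330403A02Rik. Within 200 kb of its start Lefty1 had 3 peaks, and Lefty2 had the same 3. Over all 1409 assigned genes with a symbol the median was 1, and 11.8% of these genes (166) had at least 3.

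Bmp7 differed from both Lefty genes in distance, and in side from Lefty1 only. Its peaks were on the downstream side of the start, as at Lefty2, but not inside the gene. Bmp7 (ENSMUSG00000008999) lies on the minus strand of chromosome 2, from 172695191 to 172765794, and is 70.6 kb long. Both of its peaks lay past its 3' end, and none was listed inside the gene. The nearer (172665700 to 172668550) was 2851 bp wide, 26.6 kb past the gene end and 97.2 kb from the start. The farther (172659600 to 172661700) was 2101 bp wide, 33.5 kb past the gene end and 104 kb from the start. The gene itself therefore accounts for most of the distance from the start.

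The Bmp7 peaks formed a close pair. The gap between them was 4.00 kb, and together they covered 55.3% of a span of 8.95 kb. For the Lefty peaks the corresponding share was 10.96% of 36.5 kb. Of the 2558 distinct regions in the list, 93 (3.64%) had another within 4 kb, and 403 (15.8%) had another within 33 kb. The median gap to the nearest other region was 224 kb.

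Exactly 2 distinct peaks were listed for 158 of the 1409 genes with a symbol and a peak (11.2%), Bmp7 among them. In 40 of the 158 both peaks were in the authors' downstream class, as at Bmp7. In 15 the gap between the peaks was no larger than that of Bmp7, and 4 genes met both conditions, Bmp7 included in each count. The median gap over the 158 genes was 42.1 kb. The summed width at Bmp7 was 4952 bp, the fourth highest after Myl10, Nt5e and Pabpc6, and the median was 3152 bp. Both the narrow spacing and the large width of the Bmp7 pair were thus shared by few genes with 2 peaks.

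**Figure D2:**
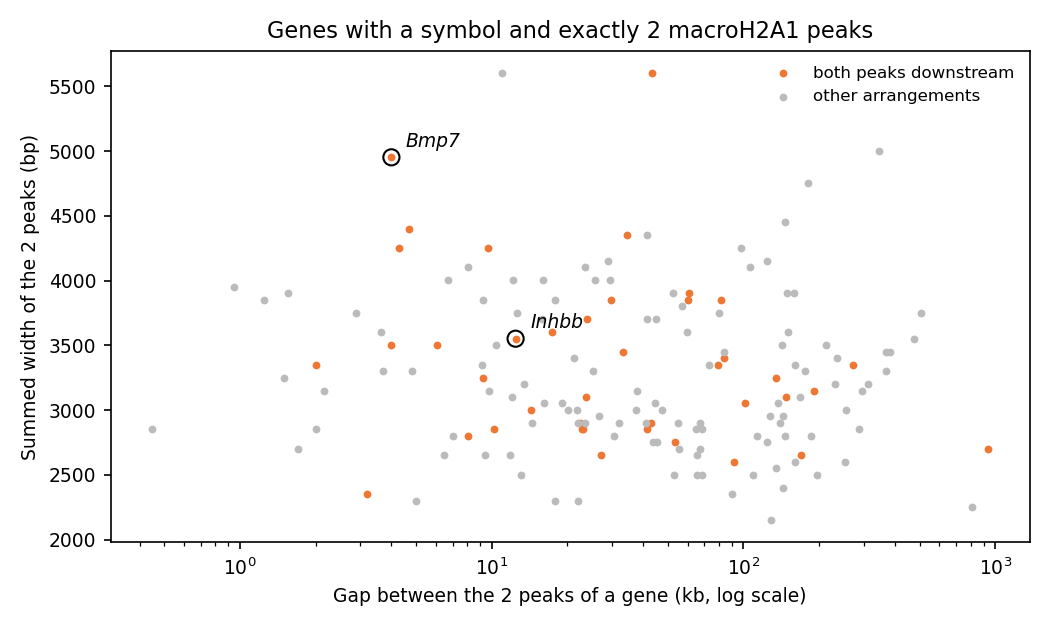
Each point is 1 of the 158 genes with a symbol and exactly 2 distinct macroH2A1 peaks, with the gap between its peaks in kb (log scale) on the x axis and their summed width in bp on the y axis. Orange points have both peaks downstream of the gene; Bmp7 (4.00 kb, 4952 bp) and Inhbb (12.45 kb, 3552 bp) are ringed.

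On the 3' side Bmp7 faces Tcfap2c, which encodes the transcription factor AP-2 gamma of trophoblast, germ cells and neural crest. The Tcfap2c end and the 3' end of Bmp7 are 311 kb apart, and this interval held 3 peaks. They were the pair listed under Bmp7 and 1 listed under Tcfap2c (172555050 to 172557050, 2001 bp). The peak listed under Tcfap2c lay 171 kb past the end of that gene, 138 kb from the 3' end of Bmp7 and 103 kb from the farther Bmp7 peak. By nearest start it went to Tcfap2c, 180 kb away, since the Bmp7 start was 209 kb away. By nearest gene end Bmp7 would have been closer. That peak is just outside a 200 kb window around the Bmp7 start, and the farther Bmp7 peak is the last inside it.

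On the 5' side of Bmp7 no peak was listed for 1385 kb past the start, where the next was assigned to ENSMUSG00000067549, a gene without a symbol. The stretch from the nearer Bmp7 peak to that peak, which contains the whole of Bmp7, was 1.48 Mb long. Of 2538 stretches between successive peaks, 518 (20.4%) were at least as long, and the median was 490 kb. The stretch between the Lefty peaks was among the short ones, since 91.5% were at least as long. Within 200 kb of its start Bmp7 had 2 peaks, its own, and 38.0% of the 1409 genes (536) had at least 2.

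In width, the peaks of these genes lay in the upper part of the list. The nearer Bmp7 peak was at the 98.9th percentile, with 24 of 2560 peaks wider. The Lefty1 peak was at the 94.9th percentile with 117 wider, the farther Bmp7 peak at the 91.9th with 191 wider, and the Lefty2 peak at the 68.1st with 767 wider. All 4 were thus above the list's median of 1551 bp (interquartile range 1301 to 1814 bp), and 33.9% of all peaks were at least as wide as the narrowest of them. Within the authors' classes the order was alike, at the 98.4th percentile of downstream peaks, the 95.1st of upstream peaks, the 92.0th of downstream peaks and the 70.2nd of inside peaks. Widths fall on steps of 50 bp.

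In distance the genes separated into near and far. The Lefty2 and Lefty1 peaks were at the 7.95th and 10.5th percentiles of the gap to the gene start. The nearer and farther Bmp7 peaks were at the 74.9th and 76.6th. Of all peaks, 15.0% (383; 95% Wilson interval 13.6 to 16.4%, counting error only) lay within 5 kb of their gene start, as both Lefty peaks did. For Lefty2 this follows from the gene's length of 5.99 kb, since a 1751 bp peak anywhere inside it lies within 5 kb. By the deposited distance, which runs to the lower coordinate of the peak, Lefty1 stood at 5.49 kb and was outside this limit. At genes with a symbol the share was 16.3% (272 of 1669). The Lefty1 peak belonged to the authors' upstream class (51.4% of peaks), whose median gap was 28.0 kb. The Bmp7 peaks belonged to the downstream class (32.6%), whose median gap to the gene's far end was 39.9 kb. By that gap the nearer and farther Bmp7 peaks were at the 40.7th and 45.6th percentiles of the class, near its middle. By the gap to the gene start both were beyond the class median of 57.7 kb, at the 65.8th and 68.4th percentiles.

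**Figure D3:**
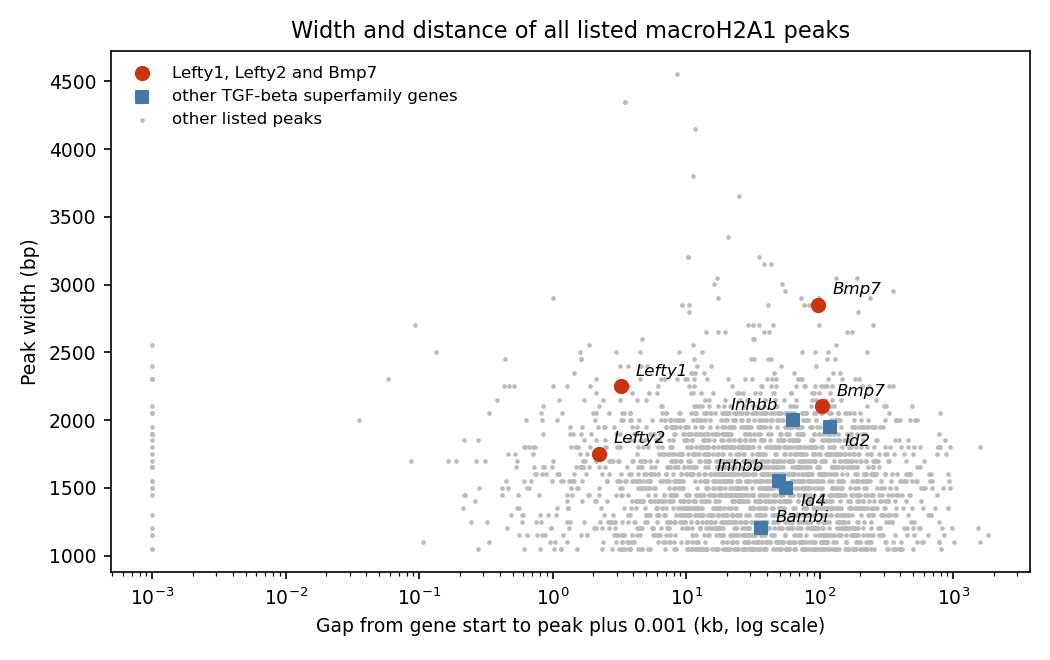
Width in bp against the gap from gene start to peak in kb (log scale, 0.001 kb added so that a gap of 0 can be drawn) for all 2560 listed macroH2A1 peaks. Red circles are the peaks of Lefty1, Lefty2 and Bmp7, blue squares those of other TGF-beta superfamily genes and grey points the rest; the Lefty peaks lie within 5 kb and the Bmp7 peaks near 100 kb.

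The pair of neighbouring genes that each carry a near peak was set beside other such pairs. Of 164 pairs of assigned genes with starts within 100 kb of each other, 16 (9.76%) had a peak within 5 kb of both starts. Both genes had a symbol in 8 of these pairs, and in 5 of the 8 they were on the same strand. By the sum of its gaps, 5.45 kb, the Lefty pair was the fourth closest of these 8 and the ninth closest of all 16. By the deposited distance it would not be among them, since Lefty1 is then past 5 kb. Among the 8, the H2-DMb2 and H2-DMb1 pair, chains of an antigen-loading protein, came first at 2.27 kb, followed by H2-Ea and Btnl1 at 4.23 kb and the olfactory receptor genes Olfr62 and Olfr1339 at 4.94 kb. After the Lefty pair came Otop3 and Cdr2l at 6.04 kb and Enpp7 and Cbx8 at 7.17 kb. The Lefty arrangement, with both genes on 1 strand, a peak inside the first and a peak upstream of the second, occurred in 3 of the 8 pairs. The other two were H2-DMb2 with H2-DMb1 and Otop3 with Cdr2l.

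**Figure D4:**
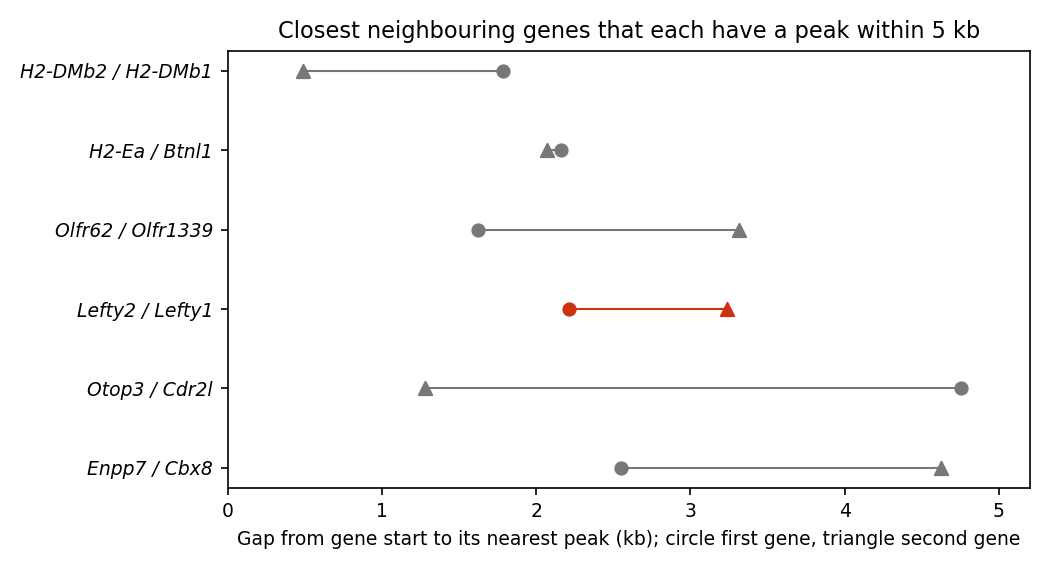
Gap in kb from the start of each gene to its nearest macroH2A1 peak, for the 6 pairs with the smallest summed gap among the 8 pairs of neighbouring genes with symbols that each have a peak within 5 kb. Circles are the first and triangles the second gene of the pair as written; Lefty2 and Lefty1 (red) have gaps of 2.21 and 3.24 kb.

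The rest of the superfamily was examined with a list of 91 genes by role. Of 33 ligand genes, 4 had a peak (12.1%; 95% Wilson interval 4.82 to 27.3%, counting error only), against 6.12% of 21631 protein-coding genes. Of these 4, 3 are the genes described here, chosen for having a peak, and without them 1 of 30 ligand genes remained (3.33%). Inhbb, the gene of the activin beta B subunit, was that gene. No peak was assigned to any of the 18 receptor and co-receptor genes, which allows a share of up to 16.7%, or to any of the 8 Smad genes, which allows up to 37.5%. Among 20 genes for antagonists and binding proteins 1 had a peak (Bambi, a decoy receptor), and among 12 target and effector genes 2 had one (Id2 and Id4, inhibitors of basic helix-loop-helix factors). Over the whole list, 7 of 91 genes had a peak (7.69%, interval 3.78 to 15.0%). Without Lefty1, Lefty2 and Bmp7 it stood at 4 of 88 genes (4.55%, interval 1.78 to 11.1%). Taking out only genes that have a peak lowers the share. Both intervals are wide and hold the 6.12% of all protein-coding genes, so no conclusion is drawn from either share. Neither Nodal, the target of the Lefty proteins, nor Bmp4 had a listed peak; these 2 were named after the result was seen.

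Inhbb resembled Bmp7 in arrangement. Both are on the minus strand with 2 peaks each, all past the 3' end. The Inhbb peaks on chromosome 1 were 1551 bp wide at 42.4 kb past the gene end (121268100 to 121269650) and 2001 bp wide at 56.4 kb past it (121253650 to 121255650). They were 49.2 and 63.2 kb from the Inhbb start and 12.45 kb apart. At Bmp7 the peak nearer to the gene was the wider, and at Inhbb the farther. Of the 6 ligand peaks, 4 were thus downstream of their gene, 1 upstream and 1 inside. The 4 downstream peaks are only the pairs at Bmp7 and Inhbb. Of all listed peaks, 32.6% were in the downstream class, 51.4% upstream and 14.2% inside.

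The other superfamily peaks were all distant from their gene start. The Id2 peak lay 119 kb upstream (1951 bp), the Id4 peak 55.5 kb downstream (1501 bp) and the Bambi peak 36.4 kb upstream (1201 bp). Of the 9 superfamily peaks, 2 lay within 5 kb of a gene start, and these were the Lefty1 and Lefty2 peaks. Lefty1 and Lefty2 were chosen for having a peak. Most listed peaks are distant too, since 15.0% of all peaks lay within 5 kb and the median gap was 32.2 kb. The 5 peaks at other superfamily genes had gaps of 36.4 to 119 kb and widths of 1201 to 2001 bp.

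Peaks at other genes with a symbol were ranked by likeness to each of the 4, as the distance between log10 gap and log10 width within the same position class. Among 348 inside peaks, those most like the Lefty2 peak were at Oc90 (2.10 kb, 1701 bp), Chrng, a muscle acetylcholine receptor subunit (2.11 kb, 1851 bp), and Six6, an eye and pituitary homeobox gene (2.47 kb, 1751 bp). Among 882 upstream peaks, Gm9792 (3.20 kb, 2401 bp), Creg1 (2.94 kb, 2501 bp) and Ranbp6 (3.16 kb, 1901 bp) were most like Lefty1. Among 408 downstream peaks, the nearer Bmp7 peak was most like those of Tnfrsf19 (97.6 kb, 2701 bp), Pabpc6 (83.3 kb, 2851 bp) and Engase (93.6 kb, 2401 bp). The farther was most like those of Clic5 (109 kb, 2151 bp), Sall1 (102 kb, 2251 bp) and 1700029F12Rik (111 kb, 1951 bp). Such a ranking returns 3 peaks for any peak, and no limit was set for calling a peak close. It therefore names the nearest peaks and draws no conclusion on how alike they are.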

How the data were processed

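The deposited table lists macroH2A1 peaks of 1 library. Per the submitters' processing notes, Bowtie was the read mapper and NCBIM37 (mm9) the build. The names of the peaks begin with CCAT, a caller that compares ChIP with control, and the columns are those of ChIPpeakAnno, which here gave each peak to the gene with the nearest start, per the file headers. Not given in the sources used here: caller settings, control, depth, and how reads matching both Lefty copies were treated.

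The header line of the table is shifted by 1 column, so columns were read by position; width followed from start and end in all 2560 rows. The gap runs from the gene start to the closer edge of the peak. The deposited distance runs to the peak's lower coordinate, so it was used as an alternative. Shares carry 95% Wilson intervals, and a count of 0 allows 3. No test was made. Symbols were matched to RefSeq genes (GRCm38.p6) by name or synonym, within the same chromosome; 891 peaks have no symbol. Genes, gene lists and settings were chosen with earlier results of these data known. Named were the 3 genes, superfamily genes with a peak, neighbours, the 6 closest near pairs (the other 2 are not reported here) and the 3 most similar peaks. The gap calculation was tested on simulated data. Python 3.11.15, pandas 2.3.3 and scipy 1.17.1 were used.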

Additional observations from a re-analysis of the deposited data

How the results depend on the processing

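No paired analysis was possible because each antibody has 1 library and the results come from no test. Of 36 alternative values, 21 were unchanged or moved by less than counting error or 1.5 times, and 15 moved by more or, as distances, at all. Measured to the peak midpoint, the gaps were 3.09 kb (Lefty2), 4.37 kb (Lefty1), 98.7 kb (nearer Bmp7 peak) and 105 kb (farther Bmp7 peak). By the deposited distance they were 5.49 kb for Lefty1 and 100.1 and 106 kb for Bmp7, because that distance runs to the lower coordinate; by it the Lefty1 peak is no longer within 5 kb and the Lefty pair no longer counts as a near pair. Among peaks of the same chromosome, the width percentile was 70.2 for Lefty2, 93.0 for the farther and 99.7 for the nearer Bmp7 peak. Within 100 kb of its start Bmp7 had 1 peak. By midpoint 12.97% of all peaks lay within 5 kb of a start. With peaks within 50 kb, 4 superfamily genes had a peak, since all peaks of Bmp7, Id2 and Id4 are farther. Neighbouring pairs numbered 34 with peaks within 10 kb and 9 with starts within 50 kb. Windows around the peaks and symbols taken as listed were added after the data were seen. The unknown depth limits any statement on genes without a peak.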
